A study of Danio rerio with 4 samples.

Results

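Zebrafish genes for matrix proteases and for the proteins that restrain them were followed in embryos that lack Tulp3. Members were the genes whose symbol begins with mmp, timp, adamts or adamtsl followed by a digit, and that had at least 1 read in any library. The rule matched 47 symbols, and 30 of them had a read, out of 31388 genes listed and 18955 with a read. These 30 were 15 *mmp*, 2 *timp*, 9 *adamts* and 4 *adamtsl* genes. All samples were whole embryos at 2 days post-fertilization (2 dpf) sequenced as poly(A) RNA, in 2 biological replicates per group. The control group is labelled WT. The MZ*tulp3* embryos lacked both maternal and zygotic *tulp3* through a CRISPR/Cas9 allele (*tulp3* uf3/uf3, kept in the *li1Tg* transgenic line on an AB/TL background), and those with severe ventral curvature were taken, so that genotype and this selection cannot be told apart. The number of embryos per library, and whether the controls carry *li1Tg*, are not given in the sources used here.

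Matrix metalloproteinases (Mmp) are zinc-dependent enzymes that are made as inactive precursors and cut collagens, gelatins and cell-surface proteins. Some are secreted, and others are held in the plasma membrane. Tissue inhibitors of metalloproteinases (Timp) bind to their active site. Adamts enzymes are secreted relatives with thrombospondin repeats, which trim procollagens or cut proteoglycans such as versican, while the Adamts-like proteins (Adamtsl) have the repeats without the protease part and bind the microfibril network.

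The libraries held 22589725 to 29735214 reads on genes, 41.0% to 71.1% of them on the 13 mitochondrial genes, with the highest share in MZ*tulp3* replicate 2. Values below are normalized counts, meaning reads divided by the size factor of the library, and they are not corrected for transcript length, so levels are compared between libraries and not between genes. A library at 0 can hide up to 3 reads, which is 1.98 to 3.54 normalized counts by library and covers counting error only. Of *tulp3* itself, 36 reads came from control replicate 2 and 0 from the remaining libraries, which leaves the genotype unchecked by its own RNA. Markers of epidermis, muscle, neurons, and of liver and yolk taken as 1 list, were read, as a whole embryo would hold them.

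Gelatinase genes stood higher in MZ*tulp3* embryos, but no member passed the test across all genes. Of the 7 genes of membrane-bound enzymes kept, 3 lay lower without overlap, where 23.3% of all genes kept did. Of all 20 members kept, 3 lay higher and 5 lower without overlap, which is near the 43.3% of all genes kept that did not overlap. *mmp2* was 5.72-fold higher on average, and *mmp9* was near absent from control libraries and present in both MZ*tulp3* libraries. *mmp23bb* was 4.10-fold lower, and *mmp24* was read in both control libraries and in neither MZ*tulp3* library. The single *timp* gene read in every library, *timp2a*, showed no such separation.

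Of the 30 members, 20 entered the fit, having 10 or more normalized counts in at least 2 libraries. By limma with Benjamini-Hochberg adjustment over 14674 genes, 0 of the 20 had an adjusted p under 0.05, where 0.0% of all genes did, and the smallest adjusted p of a member was 0.379. That value was also the smallest over all genes, and genes with different unadjusted p shared it. At an unadjusted p under 0.05 stood 3 members, *mmp2* and *mmp9* as higher and *mmp24* as lower, beside 12.8% of all genes (4.82% of all genes as higher and 7.94% as lower). For 2 of them entry to the test was set by the group where they were high, since *mmp9* reached the minimum in MZ*tulp3* libraries alone and *mmp24* in control libraries alone. On whole reads, edgeR called 0 members after adjustment and had 1 at an unadjusted p under 0.05 (9.72% of all genes). DESeq2 called 0 of the 14 members to which it gave an adjusted p, where it called 2.6% of genes, and had 3 members of 30 at an unadjusted p under 0.05, against 11.4% of genes. The groups did not overlap for 8 of the 20 members, 3 higher and 5 lower in MZ*tulp3* embryos. Over all genes kept this share was 43.3%, with 20% (2942 genes) higher and 23.3% (3414 genes) lower, so the members' count lay near the background. The smallest two-sided p that an exact permutation test of a single value allows with 2 libraries against 2 is 0.333.

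**Figure D1:**
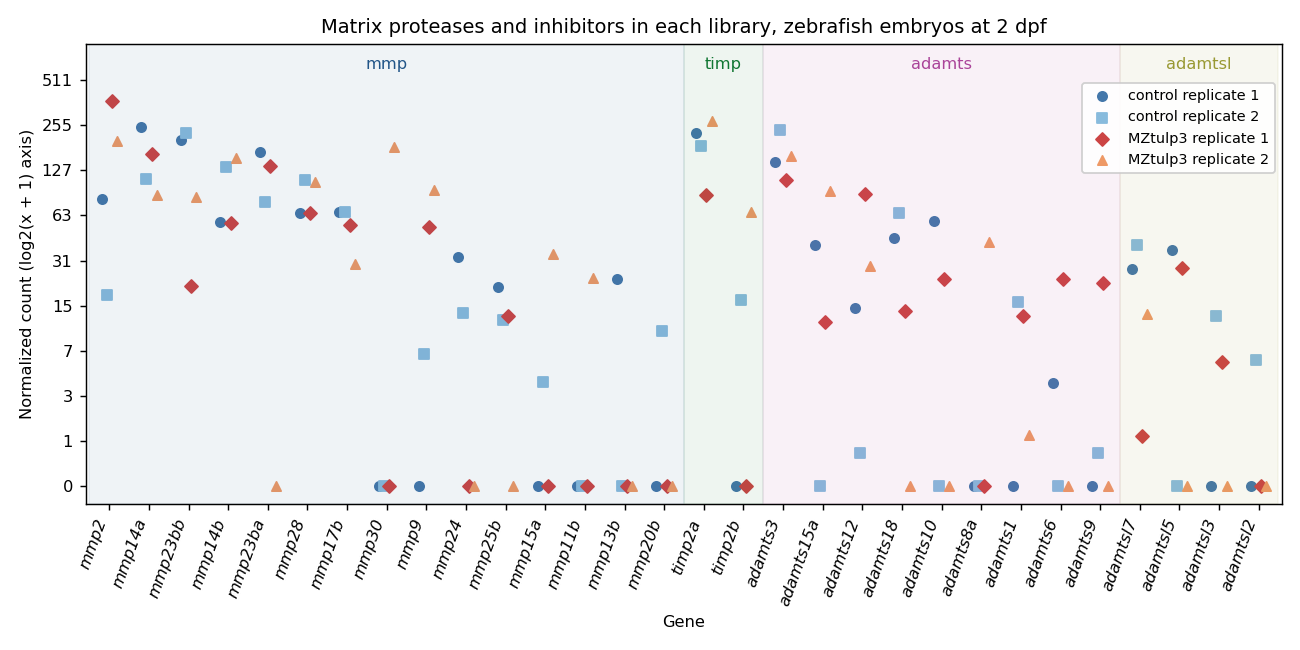
Normalized counts of the 30 members with a read, 1 point per library, on a log2(x + 1) axis and grouped by subfamily in order of mean level. *mmp2* and *mmp9* have both MZ*tulp3* points above both control points, *mmp23bb* and *mmp24* have them below, and many genes have a library at 0 beside others at 20 or more.

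Among the secreted Mmp genes, *mmp2*, which encodes the gelatinase that cuts denatured collagen and basement membrane collagen, had 81.8 and 17.8 normalized counts in control against 371 and 199 in MZ*tulp3* embryos. Every MZ*tulp3* library lay above every control library, although the control libraries themselves differed widely. On the log2(count + 2) scale the fold change was 2.75, with a standard error (SE) of 1.05 and a limma-adjusted p of 0.379, which ran from 0.146 to 0.708 over all alternatives (other tests, filters, pseudocounts and scalings, a replicate term, and each library left out). Leaving out control replicate 2 gave 1.71, and leaving out control replicate 1 gave 3.79.

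The other gelatinase gene, *mmp9*, is known in zebrafish from leukocytes and from wounded or regenerating tissue. It had 0 and 6.60 normalized counts in control against 52.7 and 93.2 in MZ*tulp3* embryos. The groups did not overlap, with a log2 fold change of 4.12 (SE 1.73, limma-adjusted p = 0.390, alternatives 0.329 to 0.677). Among myeloid marker genes, *mpx*, the myeloperoxidase of neutrophils, had 3.85 and 0 normalized counts in control against 75.6 and 40.1 in MZ*tulp3* embryos. The whole list of 10 myeloid markers did not separate in this way. Its summed counts were 484 and 537 in control against 314 and 634 in MZ*tulp3* embryos. Of its 7 genes kept, 3 had a log2 fold change above 0 and 4 below, at a median of -0.06. Without overlap, 2 of them were higher and 0 lower, where 20% of all genes kept were higher and 23.3% lower. These 2 include *mpx*, which like *mmp9* reached the minimum of the filter in MZ*tulp3* libraries alone. The defining markers *spi1b* and *ptprc* were at 0 in every library. In whole embryos, fewer cells of a type and less RNA per cell cannot be told apart, and the part of myeloid cells in the *mmp9* values was not tested.

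The remaining secreted members were read in few libraries. *mmp28*, which encodes epilysin, was the exception, with 65.5 and 109 normalized counts in control against 65.3 and 106 in MZ*tulp3* embryos, so that the groups overlapped fully (log2 fold change -0.02, SE 1.01). *mmp30* had 155 reads in MZ*tulp3* replicate 2, or 183 normalized counts, and 0 reads in the other libraries, MZ*tulp3* replicate 1 included. Against a floor of 3 reads per control library this is at least 37.6-fold higher for the group, and no bound is left without that library. DESeq2 gave *mmp30* an adjusted p of 0.0549, the smallest of any member, and the filter kept it out of the limma test. In the same library *mmp11b*, the gene of a stromelysin, had its only 20 reads, while *mmp13b*, which encodes a collagenase, had 24 reads in control replicate 1 alone and *mmp20b*, the gene of the enamel protease, had 15 reads in control replicate 2 alone. Each of these genes thus rested on 1 library.

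Of the 8 membrane-bound genes with a read, 7 were kept. Among these 7, 3 (*mmp23bb*, *mmp24* and *mmp17b*) lay lower in MZ*tulp3* embryos without overlap and the others overlapped. Of all genes kept, 43.3% did not overlap and 23.3% were lower without overlap. The gene not kept, *mmp15a*, overlapped. *mmp23bb*, of a family anchored through its amino-terminal end, had 203 and 224 normalized counts in control against 20.6 and 83.8 in MZ*tulp3* embryos. Both MZ*tulp3* libraries lay below both control libraries, and the control values differed little. The log2 fold change was -2.29 (SE 1.04, limma-adjusted p = 0.418, alternatives 0.245 to 0.828). Leaving out MZ*tulp3* replicate 1 gave -1.33, and leaving out the other gave -3.25. Its paralog *mmp23ba* had 169 and 77.9 in control against 136 and 0 in MZ*tulp3* embryos. These groups overlapped, and the log2 fold change of -2.82 (SE 2.16, limma-adjusted p = 0.624) rested on the library at 0, since it was 0.24 without MZ*tulp3* replicate 2. Because reads can be split between near copies, the sum of both genes was also taken. The sum was 373 and 302 in control against 157 and 83.8 in MZ*tulp3* embryos, without overlap.

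*mmp24*, which encodes a membrane-type enzyme known from the nervous system of mice, had 32.7 and 13.2 normalized counts in control against no read in either MZ*tulp3* library. It was at least 6.58-fold lower against a floor of 3 reads per MZ*tulp3* library, with bounds of 3.79-fold when control replicate 1 was left out and 9.38-fold when control replicate 2 was (limma-adjusted p = 0.391, alternatives 0.162 to 0.627). Of 5 neuronal marker genes, all were kept and 4 had a log2 fold change below 0, where 52.8% of all genes kept did. Without overlap, *elavl4* and *snap25a* were lower, where 23.3% of all genes kept were, and the other markers overlapped. Their summed counts were 9583 and 15210.4 in control against 8904 and 6501 in MZ*tulp3* embryos, and the part of neuronal RNA in the *mmp24* values was not tested.

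*mmp17b*, whose product is held by a lipid anchor, had 66.4 and 66.0 normalized counts in control against 53.8 and 29.5 in MZ*tulp3* embryos. It lay lower without overlap, by a log2 fold change of -0.70 (SE 1.28). The other lipid-anchored enzyme gene, *mmp25b*, had 20.2 and 11.9 in control against 12.6 and 0 in MZ*tulp3* embryos, with overlap. *mmp15a*, of another membrane-type enzyme, had 0 and 3.96 in control against 0 and 34.2 in MZ*tulp3* embryos. Like *mmp28*, *mmp20b*, *adamts1*, *adamts6* and *adamts9*, these 3 genes lay outside the rule for named members and were described after their values were seen, so that every member is given.

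*mmp14a* and *mmp14b* encode the membrane-type enzyme that, in mammals, activates the Mmp2 precursor together with Timp2. *mmp14a* had 248 and 112 normalized counts in control against 164 and 86.2 in MZ*tulp3* embryos, and *mmp14b* had 56.8 and 133 in control against 56.1 and 155 in MZ*tulp3* embryos. Both overlapped between groups, with log2 fold changes of -0.48 (SE 0.81) and 0.10 (SE 1.06) that changed sign when single libraries were left out and, for *mmp14b*, with scaling by non-mitochondrial reads (-0.11). Their sum was 305 and 244 in control against 219.8 and 241 in MZ*tulp3* embryos, lower without overlap by a narrow gap and 0.838 times the control level on average. Reads of *mmp2* per read of the *mmp14* pair, a ratio that does not depend on the scaling of libraries, were 0.268 and 0.0730 in control against 1.69 and 0.828 in MZ*tulp3* embryos. The ratio of *mmp2* to *timp2a* was 0.362 and 0.0961 in control against 4.26 and 0.732 in MZ*tulp3* embryos. Both ratios were higher without overlap, as was *mmp2* alone, which is the numerator of both.

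**Figure D2:**
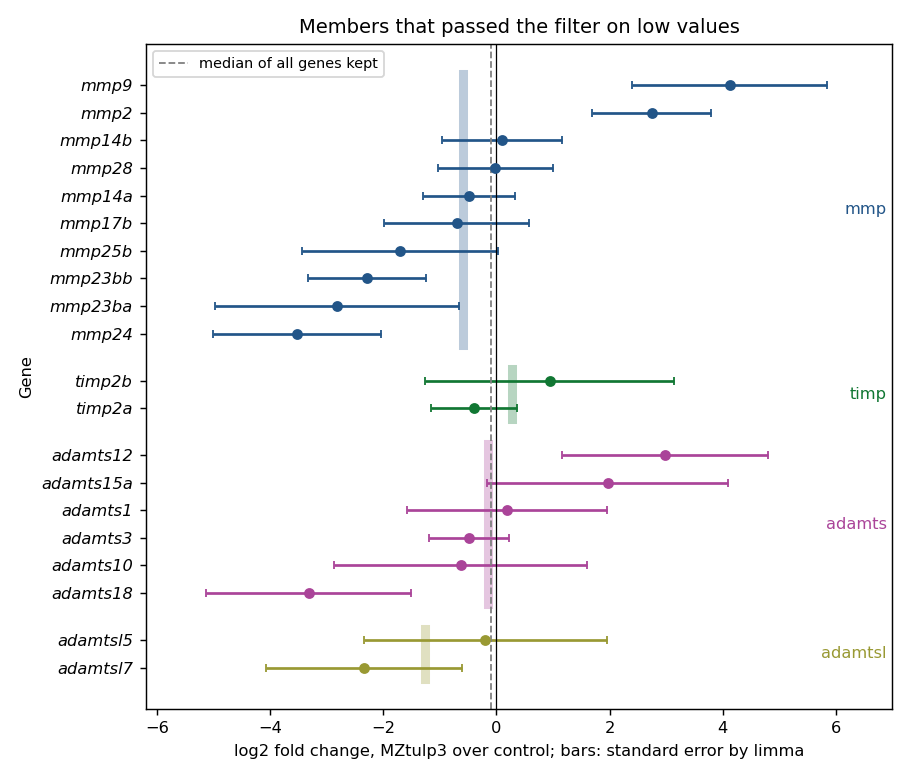
Log2 fold change of MZ*tulp3* over control for the 20 members that passed the filter, on log2 of the normalized count plus 2, with limma's standard error as the bar. Thick vertical bars mark the median of each subfamily, and the dashed line marks the median of all genes kept, -0.09. *mmp9* at 4.12 and *mmp24* at -3.52 are the ends of the range.

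Compared by role, the secreted and the membrane-bound sums separated the groups, and the total did not. The 15 *mmp* genes together had 968 and 785 normalized counts in control against 932 and 994 in MZ*tulp3* embryos, with overlap. The 7 secreted members with a read summed to 170.4 and 143 in control against 489 and 605 in MZ*tulp3* embryos, 3.49-fold higher on average. The 8 membrane-bound members summed to 797 and 642 in control against 443 and 388 in MZ*tulp3* embryos, 0.578 times the control level. Neither sum overlapped between the groups, which 43.3% of single genes kept also did not, and a sum over chosen members was given no test. The separation of the secreted sum rested on *mmp2*. Without it the sum was 88.6 and 125 in control against 118 and 406 in MZ*tulp3* embryos, with overlap.

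Secreted members took 17.6% of all *mmp* reads in control replicate 1 (95% Wilson interval 15.4% to 20.1%) and 18.3% in control replicate 2 (16.2% to 20.5%). In MZ*tulp3* embryos they took 52.5% in replicate 1 (49.0% to 55.9%) and 60.9% in replicate 2 (57.6% to 64.2%). The intervals cover counting error only. The control intervals overlapped each other, and both MZ*tulp3* intervals lay above them. Expressed as a log2 ratio of secreted to membrane-bound counts, the difference between groups was 2.59, and 2.34 to 2.84 with each library left out in turn. Its SD was 0.04 in control against 0.35 in MZ*tulp3* embryos (n = 2 each). The small SD in control depended on *mmp2*. Without that gene the difference was 1.84, with an SD of 0.58 in control against 1.40 in MZ*tulp3* embryos.

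The excess of secreted reads came from different genes in the 2 MZ*tulp3* libraries. In replicate 1 *mmp2* held 39.8% of all *mmp* reads, and in replicate 2 it held 20.1% while *mmp30* had 155 and *mmp9* 79 of the 513 secreted reads. In control, *mmp2* held 8.46% and 2.27%. Without *mmp2* the secreted share was 10% and 16.4% in control against 21.0% and 51.1% in MZ*tulp3* embryos. The order of the groups was kept, but the Wilson intervals of control replicate 2 (14.3% to 18.6%) and MZ*tulp3* replicate 1 (17.6% to 24.8%) met. The ratio of secreted to membrane-bound counts was 6.004-fold higher in MZ*tulp3* embryos with all genes, and 2.67-fold higher without *mmp2*, *mmp23ba* and *mmp23bb*. Without these genes it was 0.209 and 0.370 in control against 0.412 and 1.33 in MZ*tulp3* embryos. MZ*tulp3* replicate 1 thus lay close to control replicate 2, and most of the difference came from MZ*tulp3* replicate 2, the only library with *mmp30* reads. On the membrane side, *mmp23ba* and *mmp23bb* held 46.7% and 47.1% of the reads in control against 35.4% and 21.6% in MZ*tulp3* embryos.

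**Figure D3:**
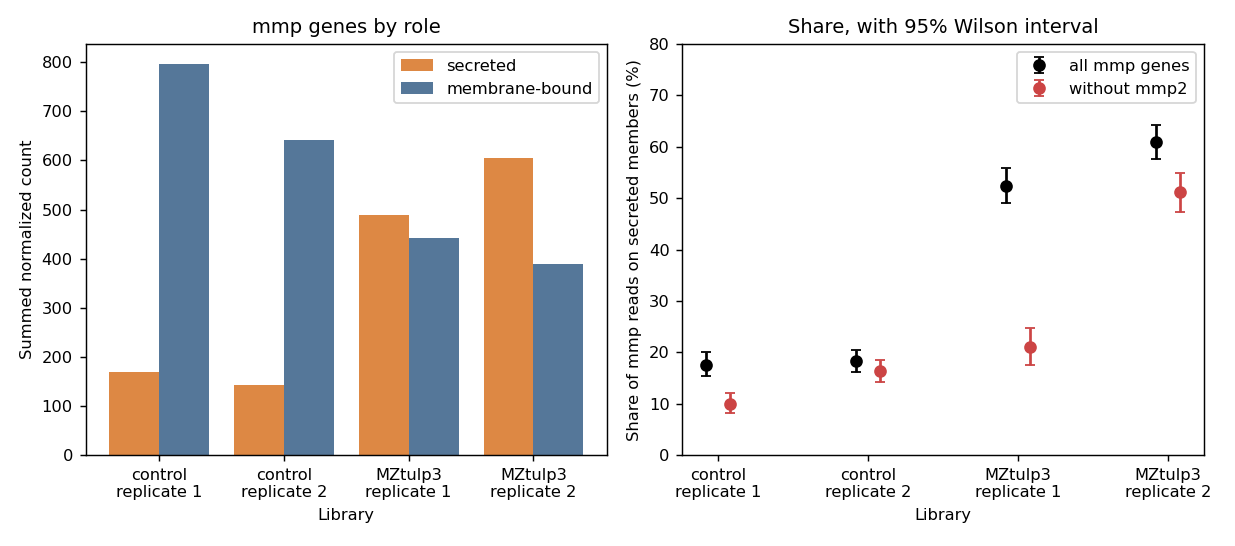
Left, summed normalized counts of secreted and membrane-bound *mmp* genes in each library. Right, the share of *mmp* reads on secreted members in each library with its 95% Wilson interval, for all *mmp* genes and without *mmp2*. The share is 17.6% and 18.3% in the control libraries and 52.5% and 60.9% in the MZ*tulp3* libraries, and without *mmp2* that of MZ*tulp3* replicate 1 is 21.0%.

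The inhibitor genes did not separate the groups. *timp2a*, whose product both inhibits Mmp2 and, in mammals, helps to activate it, had 226 and 186 normalized counts in control against 87.0 and 273 in MZ*tulp3* embryos. Its 2 MZ*tulp3* libraries lay on either side of control, and the log2 fold change was -0.40 (SE 0.76, limma-adjusted p = 0.875, alternatives 0.572 to 1.000). The value was 0.41 with MZ*tulp3* replicate 1 left out and -1.22 with the other left out. *timp2b* had 16.5 normalized counts in control replicate 2, 66.1 in MZ*tulp3* replicate 2 and 0 reads in both first replicates. Its log2 fold change of 0.94 (SE 2.21) changed to -1.60 without MZ*tulp3* replicate 2. *timp4.2* and *timp4.3*, neighbours on their chromosome, had no read. The ratio of summed *mmp* to summed *timp* counts was 4.28 and 3.89 in control against 10.7 and 2.93 in MZ*tulp3* embryos, so it overlapped.

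Among the Adamts genes, *adamts3* was well read in every library. Its product trims procollagens and, in zebrafish and mammals, takes part in maturing the lymphatic growth factor Vegfc. It had 144 and 237 normalized counts in control against 109.9 and 159 in MZ*tulp3* embryos. The groups overlapped, and the log2 fold change was -0.48 (SE 0.71, limma-adjusted p = 0.829, alternatives 0.704 to 0.971).

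*adamts12* and *adamts18* lay apart without overlap, in opposite directions. *adamts12*, whose mammalian product cuts the cartilage protein Comp, had 14.4 and 0.660 normalized counts in control against 88.2 and 28.3 in MZ*tulp3* embryos, with a fitted log2 difference of 2.98 (SE 1.82, limma-adjusted p = 0.541, alternatives 0.507 to 0.842). *adamts18*, which is known from eye development in mice, had 44.3 and 65.4 in control against 13.7 and 0 in MZ*tulp3* embryos, with a fitted log2 difference of -3.31 (SE 1.81, limma-adjusted p = 0.493, alternatives 0.313 to 0.862). Leaving out a library took *adamts12* from 1.67 to 4.30 and *adamts18* from -4.80 to -1.83. Control replicate 2 for *adamts12* and MZ*tulp3* replicate 2 for *adamts18* were under the minimum of the filter. Their entry to the fit thus leaned on the group where they were high.

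Genes of the enzymes that cut versican and aggrecan had few reads. *adamts15a* had 39.5 and 0 normalized counts in control against 11.5 and 92.1 in MZ*tulp3* embryos. *adamts1* had 0 and 15.8 in control against 12.6 and 1.18 in MZ*tulp3* embryos. Both overlapped. *adamts8a* had 35 reads in MZ*tulp3* replicate 2 alone, which gives at least 8.48-fold higher for the group and no bound without that library. The authors used GRCz10. On GRCz12tu, used here only for names and neighbours, the spans of *adamts8a* and *adamts15a* overlap, and both were highest in that library. Whether reads were counted by strand is not given, so the values of this pair are uncertain. *adamts9* had 1 read in control against 19 in MZ*tulp3* replicate 1 (0.660 and 21.8 normalized counts). Together these 4 genes summed to 39.5 and 16.5 in control against 45.8 and 135 in MZ*tulp3* embryos.

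*adamts10*, which encodes an enzyme of the fibrillin network, had 57.8 and 0 normalized counts in control against 22.9 and 0 in MZ*tulp3* embryos. *adamts6*, of the same network in mice, had 3.85 and 0 in control against 22.9 and 0 in MZ*tulp3* embryos. Both were read in the first replicate of each group and not in the second. The sum of the 9 *adamts* genes was nearly the same in all libraries under the size factors used, at 304 and 319.6 in control against 303 and 322 in MZ*tulp3* embryos, although its members ranged from -3.31 to 2.98 in log2 fold change.

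The *adamtsl* genes stood lower as a sum, at 63.5 and 58.1 in control against 34.4 and 12.98 in MZ*tulp3* embryos, without overlap. Of single genes kept, 23.3% were also lower without overlap. The sums hold only 66 and 88 reads in control against 30 and 11 in MZ*tulp3* embryos. The log2 ratio of the mean sums was -1.29, or -2.07 with MZ*tulp3* replicate 1 left out and -0.79 with MZ*tulp3* replicate 2 left out. *adamtsl7* had 27.0 and 39.6 normalized counts in control against 1.15 and 12.98 in MZ*tulp3* embryos, and it was the 1 *adamtsl* gene read in every library. In MZ*tulp3* replicate 1 it was under the minimum of the filter, so its entry to the fit leaned on the control libraries. Its log2 fold change was -2.34 (SE 1.73, limma-adjusted p = 0.614, alternatives 0.503 to 0.932). *adamtsl5*, whose mammalian product binds fibrillin, had 36.6 and 0 in control against 27.5 and 0 in MZ*tulp3* embryos, with overlap. *adamtsl3* had 12.5 in control replicate 2 and 5.73 in MZ*tulp3* replicate 1. *adamtsl2*, whose human gene is mutated in a disease of the fibrillin network, had 9 reads in control replicate 2 alone, the fewest of any member.

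**Figure D4:**
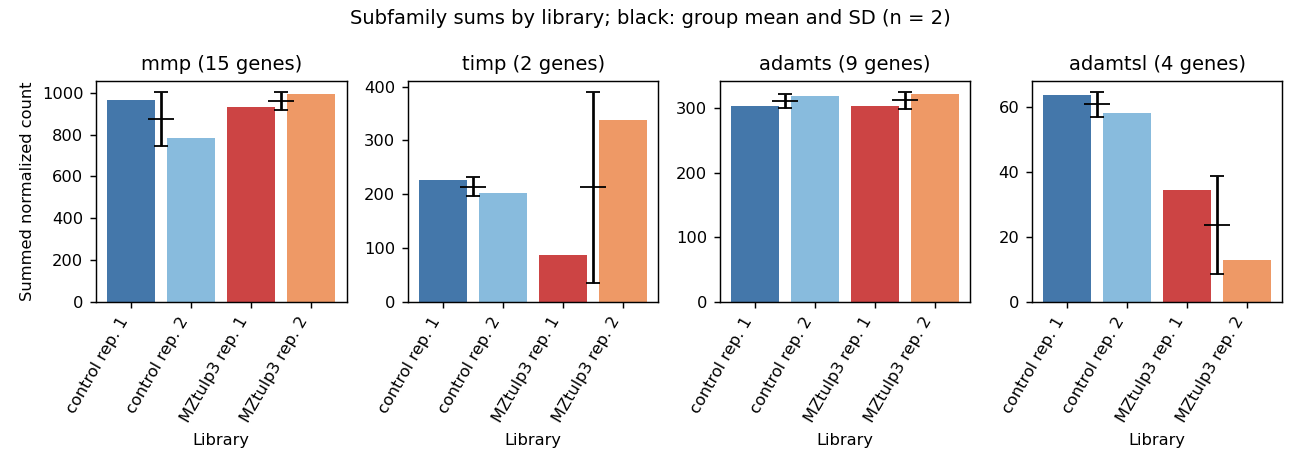
Summed normalized counts of each subfamily in the 4 libraries, with the group mean and SD in black (n = 2) and a separate vertical axis for each subfamily. The *mmp* and *adamts* sums are alike in both groups, the *timp* sum varies most within MZ*tulp3* embryos (87.0 and 339), and the *adamtsl* sum is lower in both MZ*tulp3* libraries.

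Side by side, the median log2 fold change was -0.59 for the 10 *mmp* genes kept (3 higher and 7 lower), 0.27 for the 2 *timp* genes (1 higher and 1 lower), -0.14 for the 6 *adamts* genes (3 and 3) and -1.27 for the 2 *adamtsl* genes (both lower). Over all genes kept it was -0.09, with 47.2% higher and 52.8% lower. Within the *mmp* genes, the 3 secreted members kept had a median of 2.75, which is the value of *mmp2*. The 7 membrane-bound members kept had a median of -1.70, with 6 of the 7 below 0. That median is the value of *mmp25b*, which was -0.27 without MZ*tulp3* replicate 2. The secreted members include *mmp9* and the membrane-bound ones *mmp24*, whose entry to the fit was set by the group where they were high. These medians are thus no support for a difference between the classes. A log2 fold change of at least 1 in size was reached by 10 of the 20 members and by 45.7% of all genes kept. Taken per library, the median log2 deviation of the *mmp* genes from their own means over the 4 libraries was 0.58 and 0.44 in control against 0.14 and -0.44 in MZ*tulp3* embryos. That of the *timp* genes was -0.87 and 0.60 against -1.54 and 1.81, so that the libraries of 1 group lay as far apart as the whole range.

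Zeros were common among the members. Of the 30, 12 had a library at 0 reads beside one with 20 reads or more in the same group (40.0%), against 26.9% of all genes with a read. Among the genes kept it was 6 of 20 members (30.0%) and 19.9% of all genes. MZ*tulp3* replicate 2, the library with the highest mitochondrial share and the fewest genes read, had the most members at 0, 12 of the 30, and control replicate 2 had the fewest, 8. The 17 symbols without a read included *mmp13a*, *mmp15b*, *mmp19*, *adamts5*, *adamts7* and *adamts13*. Of all genes with a symbol, 22.6% had no read. A table of gene names gave family names to 4 more identifiers that carry other symbols here, of which 1, named ADAMTS15 there, had 33 reads in MZ*tulp3* replicate 2 and 0 in the other libraries. It was not counted as a member.

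Genes that act with the members were taken as lists. Of 49 other proteases, activators and inhibitors of the cell surface and matrix, 27 were kept, 13 with a log2 fold change above 0 and 14 below, at a median of -0.10. The groups did not overlap for 8 higher and 6 lower genes. Over all genes kept, 20% were higher and 23.3% lower without overlap. By limma 0 genes of the list passed an adjusted p of 0.05, and 2 higher and 4 lower ones had an unadjusted p under 0.05. Such an unadjusted p was reached by 4.82% of all genes as higher and by 7.94% as lower. The genes of this list given next were named after their values were seen. Among the lower ones, *adam17a*, which encodes a sheddase of membrane proteins, had 555 and 814 normalized counts in control against 121 and 42.5 in MZ*tulp3* embryos (log2 fold change -3.19, SE 0.69, limma-adjusted p = 0.379). *furinb*, of a convertase that cuts the precursors of membrane-type Mmp and Adamts enzymes, had 516 and 559 in control against 101 and 237 in MZ*tulp3* embryos (log2 fold change -1.78, SE 0.58, limma-adjusted p = 0.379). Its paralog *furina* lay the other way, with 122 and 118 in control against 200.4 and 318 in MZ*tulp3* embryos (log2 fold change 1.06, SE 0.65, limma-adjusted p = 0.544). So did *reck*, of a membrane-anchored inhibitor of Mmp enzymes, with 299 and 313 in control against 649 and 457 in MZ*tulp3* embryos. The 2 higher genes at an unadjusted p under 0.05 by limma were *a2ml*, of an alpha-2-macroglobulin-like inhibitor, and *adam9*. *a2ml* had 0 and 8.58 in control against 36.6 and 358 in MZ*tulp3* embryos (log2 fold change 4.68, SE 1.93, limma-adjusted p = 0.388). *adam9* had 0 and 5.94 in control against 45.8 and 96.8 in MZ*tulp3* embryos (log2 fold change 4.11, SE 1.73, limma-adjusted p = 0.391). Both reached the minimum of the filter in MZ*tulp3* libraries alone, so their entry to the test was set by the group where they were high. The same held for *pcsk7*, among the 4 lower genes at such an unadjusted p, which reached the minimum in control libraries alone. Of 35 substrate genes, 21 were kept, 14 above 0 and 7 below, with a median of 0.39. Of all genes kept, 47.2% were above 0. Without overlap, 7 of the 21 were higher and 2 lower, where 20% and 23.3% of all genes kept were. By limma 0 of the 21 passed an adjusted p of 0.05, and 3 higher and 2 lower ones had an unadjusted p under 0.05. The 3 higher ones were *col1a2*, *col5a2a* and *dcn*, which reached the minimum of the filter in every library. The 2 lower ones, *acana* and *ltbp3*, reached the minimum of the filter in control libraries alone.

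Summed markers of some other tissues stood apart in the same libraries, although 0 genes of any list had a limma-adjusted p under 0.05. All 6 epidermal markers had a log2 fold change above 0, 5 of them without overlap and 4 at an unadjusted p under 0.05 by limma. Of all genes kept, 47.2% were above 0, 20% were higher without overlap and 4.82% were higher at such an unadjusted p. Summed counts of the epidermal markers were 177159 and 128777 in control against 311323 and 426494 in MZ*tulp3* embryos. All 4 liver and yolk markers kept were above 0, with sums of 4838 and 4775 in control against 10702 and 11666 in MZ*tulp3* embryos. Hatching gland markers, among them the protease genes *he1.1* and *he1.2*, summed to 2496 and 1258 in control against 4136 and 3001.5 in MZ*tulp3* embryos. Of the 3 kept, only *he1.1* was higher without overlap, while *he1.2* and *cd63* overlapped. Notochord markers summed to 2489 and 1429 in control against 1097 and 1119 in MZ*tulp3* embryos. Of these 5 genes, 2 had a log2 fold change above 0 and 3 below. Without overlap lay *ntd5* as higher and *shha* as lower, and *col9a2*, the gene with the highest counts, overlapped. The sums of cartilage, muscle and endothelial markers overlapped between groups. Tendon and fibroblast markers, at 2779 and 2045 in control against 2402 and 2514 in MZ*tulp3* embryos, also overlapped. The part of these tissues in the values of *mmp2* and of the other members was not tested.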

How the data were processed

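The authors trimmed reads with Trim Galore, aligned them with STAR to GRCz10, counted them per gene with RSEM and analysed them with DESeq2, through nf-core/rnaseq. The deposited columns named counts hold signal, the read count divided by 1 size factor per library, since 100% of values were whole multiples of 1 constant (tolerance 1e-06), and reads were recovered from them. The authors' deposited log2 values (regularized logarithms and fold changes) and deposited p-values were not used.

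Genes with 10 normalized counts in at least 2 libraries were tested with limma 3.58.1 (R 4.3.3), with a trend, on log2(normalized count + 2). This replaced edgeR's test, since the values were no raw counts. The edgeR 4.0.16 and DESeq2 1.42.0 tests on recovered reads were alternatives, as were other scalings, filters and pseudocounts (0.5 and 10), a replicate term and leaving out each library. Sums and ratios are descriptions, and only the sums by subfamily were among the planned results.

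Members and lists were chosen with earlier results of these data known. Members were named for an unadjusted p under 0.05, the largest changes or highest means of each subfamily, being a *timp* gene, or being read in 1 group alone with 20 reads or more. Wilson intervals and floors of 3 reads cover counting error only. No sequences were used here, so that planned searches for motifs were not run. P-values measure the spread between libraries labelled biological replicates, and whether these came from separate crosses is not given.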

Additional observations from a re-analysis of the deposited data

How the results depend on the processing

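Direction was kept by 16 named members in all but 1 of 134 values under other tests, scalings, filters, pseudocounts and a replicate block. The exception was *mmp14b*, at -0.11 with scaling by non-mitochondrial reads, which also moved the median of all genes by -0.20. With all 4 libraries, other filters and the block leave limma's fold change of a gene as it was, so those values could not reverse. With single libraries left out, 8 of the 16 kept their direction (*mmp2*, *mmp9*, *mmp23bb*, *mmp24*, *adamts3*, *adamts12*, *adamts18* and *adamtsl7*). The others ranged from -3.08 to 1.82 (*adamts10*), -0.22 to 4.15 (*adamts15a*), -2.33 to 1.94 (*adamtsl5*), -1.05 to 0.090 (*mmp14a*), -0.62 to 0.82 (*mmp14b*), -5.87 to 0.24 (*mmp23ba*), -1.22 to 0.41 (*timp2a*) and -1.60 to 3.48 (*timp2b*). No alternative called a member, which with 2 libraries per group and this spread does not show that members were alike. The calls over all genes were 0 by limma, 355 by DESeq2, 112 with at least 10 in every library and 329 with the replicate block.

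The labels give the replicate numbers no shared origin across groups, the correlation of deviations between same-numbered libraries was -0.0029 over genes, and with the replicate block 0 members were called and no call changed among them. Members without overlap numbered 3 with at least 10 in every library, where 8 members are left, and 12 to 15 with a library left out, where 1 value faces 2. The *mmp* median was -0.25 under that filter and -1.03 to -0.28 with a library left out. The *adamts* median was 1.04 with no filter and -0.56 to 0.88 with a library left out. With non-mitochondrial scaling the summed log2 ratio was -0.072 for *mmp*, -0.20 for *adamts* and -1.01 for membrane-bound *mmp* genes. With a library left out it was -0.0068 to 0.29 for *mmp*, -1.28 to 0.66 for *timp* and -2.07 to -0.79 for *adamtsl* genes. The sums and the ratio of *mmp* genes by role, with their alternatives, were not among the planned results. Alternatives that leave genes out were added after the data were seen. They gave 1.28 for secreted *mmp* genes without *mmp2* and -0.37 for membrane-bound ones without the *mmp23* pair. The log2 ratio of both classes was 1.84 and 2.16 in these cases. The cause of these shifts was not tested.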
